A study of Mus musculus with 6 samples.

Results

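Gammaretrovirus-like ERV1 families are the mouse repeats related to murine leukaemia virus, and 21 of the 363 repeat families in the deposited RNA-seq table belong to them by name. They were chosen by a rule on names, set with earlier results of these data known. The rule takes names that start with MERV1, MuLV, MuRRS, MURVY, MMVL30 or MMERGLN. It also takes those of the LTR families RLTR1, RLTR4, RLTR5 or RLTR6, without the IAP family RLTR1IAP_MM. No family named MuLV was found, so murine leukaemia virus is represented by RLTR4_MM and RLTR4I_MM. Of the 21, 7 are internal regions and 14 are LTRs. The libraries came from testes at postnatal day 20 (P20), 3 from wild-type mice and 3 from mice homozygous for the Spocd1 dSpin1 allele (here Spocd1-ΔSPIN1, or mutants), all on a mixed B6CBAF1/Crl; C57BL/6N background and each made from a single testis. The allele encodes a SPOCD1 protein with alanine substitutions made to disrupt its binding to the chromatin reader SPIN1, and it is carried by every cell of the mouse. The comparison asks which transposon families differ in RNA level when this binding is disrupted. The table lists no gene, so neither the tissue nor the genotype could be checked against a marker.

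An endogenous retrovirus is a provirus in the germline, built of an internal region with the gag, pol and env genes, or what is left of them, between a pair of long terminal repeats (LTRs). The LTR carries the promoter and the polyadenylation signal, and recombination between the LTRs of a provirus often leaves a solitary LTR behind. SPOCD1 acts in the germ cells of male foetuses together with PIWI proteins and their small RNAs, and is known for its role in the methylation of young LINE1 and IAP copies, not of transposons in general. ERV1 elements of the mouse include infectious viruses (murine leukaemia virus), elements without functional viral genes that spread in the particles of other viruses (VL30), and the GLN family, named for the tRNA that primes its reverse transcription.

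The wild-type libraries held from 369598 to 499166 reads on repeat families, and the mutant libraries from 842018 to 1013224. Levels are given as CPM, edgeR's counts relative to library size, with library sizes scaled by TMM (trimmed mean of M-values) factors, a scaling that takes most families as not changed. LINE1 families took 44.9% of the reads in wild type and 66.2% in mutants, and scaling by the total count of the table in place of TMM shifted the log2 fold change of each tested family by −1.04 to −0.99. Of the 21 families, 19 passed the filter on low counts and were tested, and the p-values were adjusted over all 292 families tested. The libraries of a genotype are labelled as separate samples, each from a mouse of its own, and the methods of the study allow for several litters per experiment without giving the litter of a library. Mutant replicate 1 stood apart from the others of its genotype over the whole table, where the chi-square per degree of freedom was 417 against replicate 2 and 360 against replicate 3, compared with 14.5 between replicates 2 and 3. Outside LINE1 families, mutant replicate 1 had values of 33.9 and 22.0, and the other pairs within a genotype between 9.43 and 12.7. Over the ERV1 families alone, the values among mutants were 22.4 between replicates 1 and 2, 7.35 between 1 and 3, and 8.02 between 2 and 3, and between 6.69 and 18.1 for pairs of wild-type libraries.

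A pair of the 19 families, MERV1_I and RLTR1F_Mm, fell in Spocd1-ΔSPIN1 testes, and none rose past the Bonferroni threshold of 0.05. MERV1_I was 1.74-fold and RLTR1F_Mm 3.75-fold lower than in wild type. Among families grouped as VL30 by name, the abundant MMVL30 and RLTR6_MM were 1.36-fold and 1.45-fold higher with TMM and lower with total counts. RLTR6I_MM was 1.51-fold lower with TMM and lower with total counts for scaling as well. In edgeR with TMM, these 3 passed only the less strict Benjamini-Hochberg adjustment. The murine leukaemia virus families RLTR4_MM and RLTR4I_MM had levels that overlapped between the genotypes. Over all 292 families tested with edgeR's quasi-likelihood test, 2.74% were called lower and 5.48% higher with Bonferroni adjustment, against 2 of 19 and 0 of 19 here. Without wild-type replicate 1, 11 of all 311 families then tested were called lower and 7 higher, against 8 and 16 with all libraries. In each other fit with a library left out, more families were called higher than lower. These ran from 8 higher and 7 lower without wild-type replicate 2 to 22 higher and 6 lower without mutant replicate 1. At an unadjusted p under 0.05, 3 ERV1 families were higher and 8 lower, and the share of all families was 21.2% higher and 21.2% lower. The Wald test of DESeq2, which the study named, called 1 ERV1 family higher and 2 lower, where 8.36% of all 359 families in that test were called higher and 4.74% lower. With total counts for scaling, edgeR called 0 ERV1 families higher and 13 lower, where 1.37% of all 292 families were called higher and 57.5% lower. These 13 were MERV1_I, RLTR1F_Mm, RLTR6I_MM, RLTR6B_Mm, MMERGLN_LTR, MuRRS4-int, RLTR5_MM, MURVY-int, RLTR1A2_MM, RLTR1B_MM, RLTR1C_MM, RLTR1D_MM and RLTR1D2_MM, and calls described from here on are with TMM unless another scaling is named.

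**Figure D1:**
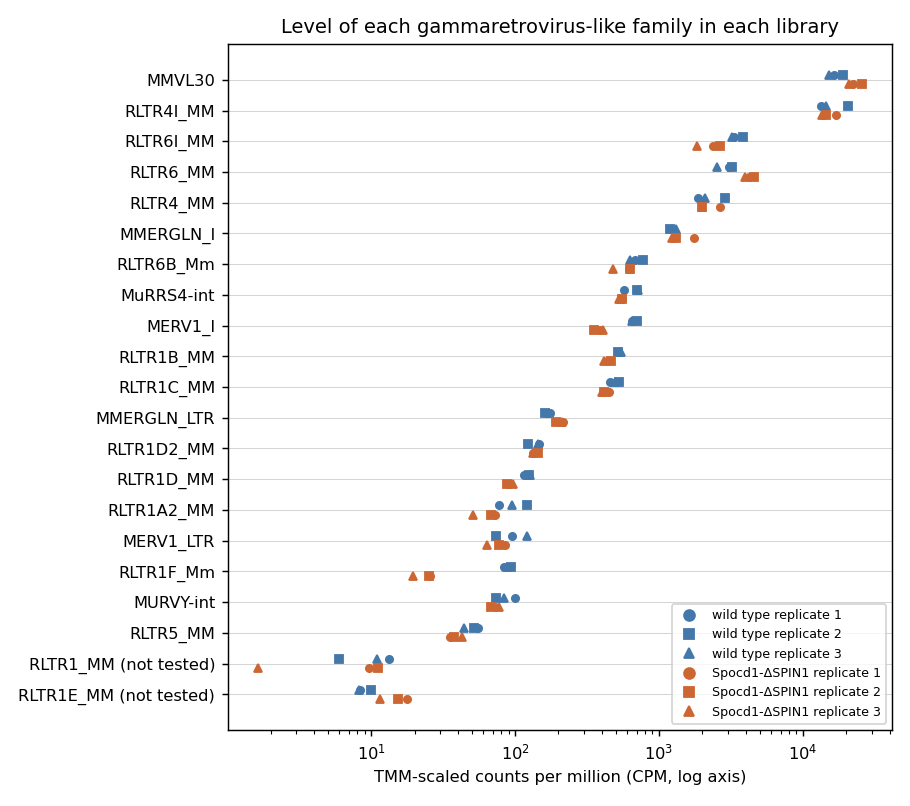
TMM-scaled CPM (log axis) of all 21 gammaretrovirus-like families in each library, ordered by the wild-type mean, with wild type in blue, Spocd1-ΔSPIN1 in orange and a symbol for each replicate. Wild-type means run from 8.83 CPM in RLTR1E_MM, which like RLTR1_MM did not pass the filter on low counts, to 16925 CPM in MMVL30, and the genotypes lie farthest apart in RLTR1F_Mm.

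In every library, most reads of the ERV1 families came from a small number of them. VL30 families (MMVL30 and names starting with RLTR6) took 54.7%, 49.2% and 50.6% of the ERV1 reads of the wild-type libraries, compared with 55.2%, 62.3% and 58.4% for the mutants. The murine leukaemia virus families RLTR4_MM and RLTR4I_MM took 38.9% ± 3.62 in wild type against 33.7% ± 3.06 in mutants (SD, n = 3 each). The VL30 share was thus higher in each mutant library than in any wild-type library, by a small margin between mutant replicate 1 and wild-type replicate 1. The share of the RLTR4 families overlapped with all libraries. It did not overlap without wild-type replicate 1 (a difference of −6.97 percentage points) or without mutant replicate 1 (−6.76). The difference in the VL30 share rested on MMVL30. When MMVL30 was left out of the sums, the other 3 VL30 families took from 21.9% to 26.6% of the remaining ERV1 reads in wild type against from 23.2% to 27.8% in mutants, which overlapped. Per kilobase of the sequence that stands for each family, the wild-type levels were highest for RLTR6_MM with 4847 CPM per kilobase, MMVL30 with 4577, RLTR4_MM with 3061, RLTR4I_MM with 2120 and RLTR6B_Mm with 1223. The lowest was MURVY-int, the internal region of a retrovirus repeated on the mouse Y chromosome, with 11.5 CPM per kilobase.

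The fall of MERV1_I, the internal region of MERV1, was seen in each mutant library. It had 386, 353 and 475 reads in wild type and 243, 251 and 249 in mutants, although the mutant libraries hold more reads in all. After scaling, these were 646, 698 and 652 CPM in wild type and 390, 351 and 407 CPM in mutants. All mutant values lay below all wild-type values, and the replicates of each genotype were close together. The means were 665 ± 28.8 and 383 ± 28.7 CPM (SD, n = 3 mice each), and the log2 fold change was −0.80 (standard error 0.081), with a Bonferroni-adjusted p = 0.00367 in edgeR. Without mutant replicate 1 it was −0.82 (Bonferroni-adjusted p = 0.0139 in edgeR). In bulk testis RNA, fewer cells that express a family and less RNA per cell cannot be told apart.

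MERV1_LTR, its LTR, had fewer reads and a wider spread. Its levels were 95.4, 73.2 and 121 CPM in wild type and 85.0, 76.9 and 63.7 CPM in mutants, so the genotypes overlapped. The log2 fold change was −0.38 (standard error 0.21, Bonferroni-adjusted p = 1 in edgeR), and counting alone gives an error of 16.4% at its lowest count of 37 reads. MERV1_LTR was −0.17 on the log2 scale without wild-type replicate 3 and −0.53 without wild-type replicate 2. Within each library the ratio of MERV1_LTR to MERV1_I reads was from 0.105 to 0.185 in wild type and from 0.157 to 0.219 in mutants, and these ranges overlapped (exact two-sided permutation test, p = 0.2, n = 3 mice each). The log2 difference of this ratio was 0.46, 0.24 without wild-type replicate 2 and 0.65 without wild-type replicate 3. Without wild-type replicate 3, or without mutant replicate 3, the ranges did not overlap. A difference in change between the LTR and the internal region was not shown. The permutation test cannot give less than 0.1 for 3 mice against 3.

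RLTR1F_Mm, an LTR family whose sequence has 590 bases, had the largest change of the 19 families. It had 50, 47 and 64 reads in wild type and 16, 18 and 12 reads in mutants. The levels were 83.6, 93.0 and 87.8 CPM in wild type against 25.7, 25.2 and 19.6 CPM in mutants. The groups were far apart, although counting error at the lowest count of 12 reads is 28.9%. The log2 fold change was −1.89 (standard error 0.17), with a Bonferroni-adjusted p = 0.00127 in edgeR, and −1.96 without mutant replicate 1 (Bonferroni-adjusted p = 0.00783 in edgeR). MERV1_I and RLTR1F_Mm were also lower when scaled by total counts, and each passed the Bonferroni threshold in all 6 edgeR fits that left out a library.

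**Figure D2:**
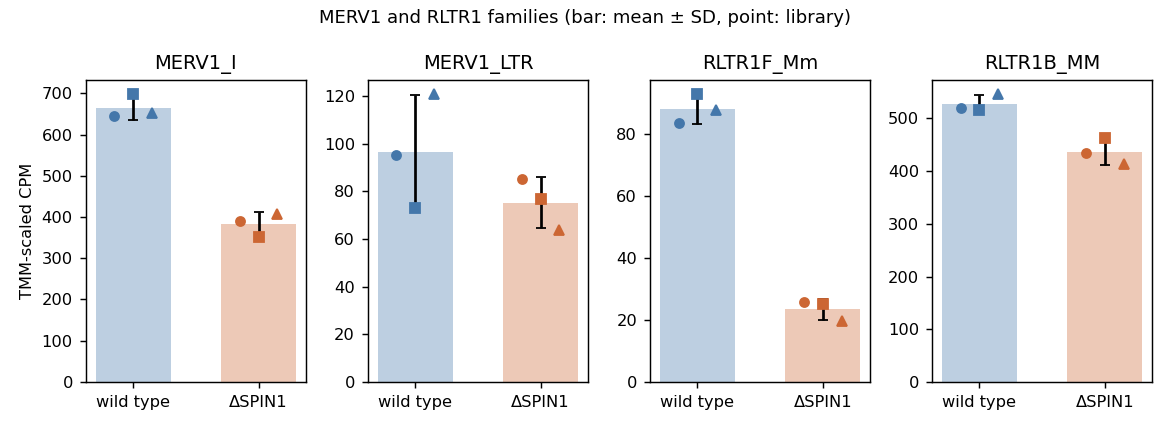
TMM-scaled CPM of MERV1_I, MERV1_LTR, RLTR1F_Mm and RLTR1B_MM in wild-type (blue) and Spocd1-ΔSPIN1 (orange) testes. Bars are means ± SD of 3 mice and points are libraries, and the genotypes overlap only in MERV1_LTR.

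The other RLTR1 LTRs that were tested had smaller log2 fold changes than RLTR1F_Mm. RLTR1B_MM had 520, 516 and 546 CPM in wild type and 435, 463 and 413 CPM in mutants, a log2 fold change of −0.27 (standard error 0.074). RLTR1D_MM had 115, 125 and 128 CPM in wild type and 89.9, 88.1 and 96.4 CPM in mutants, a log2 fold change of −0.42 (standard error 0.11). In both, all mutant values lay below all wild-type values. Both passed the Benjamini-Hochberg adjustment in edgeR (adjusted p = 0.0259 and adjusted p = 0.0232) but not the Bonferroni adjustment (adjusted p = 1 for each), and without mutant replicate 1 neither passed (Benjamini-Hochberg-adjusted p = 0.0757 and adjusted p = 0.0519 in edgeR). RLTR1B_MM also did not pass without wild-type replicate 1 (adjusted p = 0.0559), wild-type replicate 3 (adjusted p = 0.0975) or mutant replicate 3 (adjusted p = 0.105), and RLTR1D_MM did not without wild-type replicate 3 (adjusted p = 0.102) or mutant replicate 2 (adjusted p = 0.0631), all in edgeR with Benjamini-Hochberg adjustment. RLTR1B_MM did not pass it with TMM factors computed without LINE1 families either (adjusted p = 0.0748 in edgeR), and neither family passed it in DESeq2 (adjusted p = 0.158 and adjusted p = 0.161).

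RLTR1C_MM had 457, 530 and 497 CPM in wild type and 449, 414 and 402 CPM in mutants, a log2 fold change of −0.23 (standard error 0.085). The genotypes lay side by side without overlap in RLTR1C_MM, which passed neither adjustment. RLTR1A2_MM had 77.0, 121 and 94.7 CPM in wild type and 72.2, 68.5 and 50.7 CPM in mutants. Its genotypes did not overlap but lay close together, at 77.0 CPM in the lowest wild-type and 72.2 CPM in the highest mutant library, and its log2 fold change of −0.59 (standard error 0.21) did not pass Benjamini-Hochberg adjustment in edgeR with all libraries (adjusted p = 0.0641) but did without wild-type replicate 1 (adjusted p = 0.0376). RLTR1D2_MM had levels from 123 to 145 CPM in wild type and from 132 to 145 CPM in mutants, and its log2 fold change was −0.0095 (standard error 0.11). The families RLTR1_MM, with between 1 and 8 reads in a library, and RLTR1E_MM, with between 5 and 11, did not pass the filter on low counts. RLTR1E_MM had 8.36, 9.89 and 8.23 CPM in wild type and 17.7, 15.4 and 11.4 CPM in mutants with TMM, which did not overlap, but with total counts the mutant mean was the lower (10.5 against 12.5 CPM), and counting error at 5 reads is 44.7%. In the fits that kept these families, which were DESeq2, edgeR without a filter and some with a wild-type library left out, neither was called.

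RLTR1F_Mm and RLTR1B_MM were also compared by their reads inside single libraries, a ratio that needs no scaling. RLTR1F_Mm had between 0.161 and 0.180 reads for each read of RLTR1B_MM in wild type, and between 0.0474 and 0.0590 in mutants. This ratio was 3.13-fold lower in mutants, with no overlap (exact permutation test, two-sided, p = 0.1, the lowest that 3 mice against 3 can give, and 0.2 when adjusted by the Benjamini-Hochberg method over the 8 pairs of families compared in this way).

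GLN families, grouped with RLTR1 by name, had positive log2 fold changes with TMM and negative ones with total counts for scaling. MMERGLN_LTR, the LTR, had 174, 162 and 172 CPM in wild type and 215, 192 and 211 CPM in mutants. The genotypes did not overlap, but the log2 fold change of 0.28 (standard error 0.094) passed neither adjustment in edgeR with TMM (Benjamini-Hochberg-adjusted p = 0.0565). MMERGLN_LTR passed Benjamini-Hochberg adjustment in edgeR, as higher, with the size factors of DESeq2 (adjusted p = 0.0377) and with TMM factors computed without LINE1 families (adjusted p = 0.0347), and passed Bonferroni adjustment, as lower, with total counts (adjusted p = 0.0448). MMERGLN_I, the internal region, had 1194, 1195 and 1305 CPM in wild type and 1746, 1309 and 1227 CPM in mutants. Only mutant replicate 1 stood well above wild type in MMERGLN_I. The log2 fold change of MMERGLN_I was 0.21 (standard error 0.13) with all libraries, 0.032 without mutant replicate 1 and 0.33 without mutant replicate 3. With total counts, the log2 fold changes of MMERGLN_LTR and MMERGLN_I were −0.74 and −0.79.

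**Figure D3:**
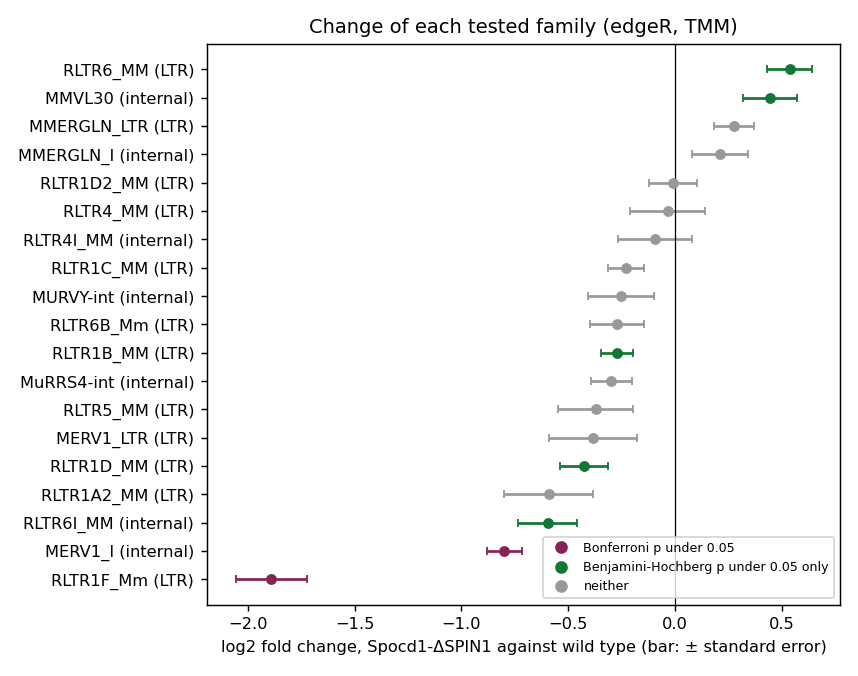
Log2 fold change of the 19 tested families in Spocd1-ΔSPIN1 against wild-type testes, with bars of ± 1 standard error, coloured by whether a family passed the Bonferroni or only the Benjamini-Hochberg adjustment over all 292 families. RLTR1F_Mm and MERV1_I passed the former, 4 families lie above 0 and 15 below, and with total counts for scaling all 19 lie below.

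Per kilobase, the most abundant families of the 21 were the VL30 families RLTR6_MM and MMVL30, which with TMM had positive log2 fold changes, while RLTR6I_MM and RLTR6B_Mm had negative ones. MMVL30 had 9827, 9672 and 11079 reads in wild type and 13925, 18490 and 12785 in mutants, which were 16439, 19133 and 15204 CPM against 22344, 25856 and 20894 CPM. The log2 fold change of MMVL30 was 0.44 (standard error 0.13, Benjamini-Hochberg-adjusted p = 0.0306 and Bonferroni-adjusted p = 1 in edgeR). MMVL30 did not pass the Benjamini-Hochberg adjustment in edgeR without wild-type replicate 1 (adjusted p = 0.0972), wild-type replicate 3 (adjusted p = 0.118) or mutant replicate 2 (adjusted p = 0.0968), and was 0.46 on the log2 scale without mutant replicate 1 (adjusted p = 0.0283). RLTR6_MM, the VL30 LTR, had 3060, 3218 and 2533 CPM in wild type and 4252, 4556 and 3973 CPM in mutants. All mutant values of both families lay above all wild-type values. The log2 fold change of RLTR6_MM was 0.54 (standard error 0.10, Benjamini-Hochberg-adjusted p = 0.00578 and Bonferroni-adjusted p = 0.271 in edgeR), and in DESeq2 RLTR6_MM passed the Bonferroni threshold as well (adjusted p = 0.00963). With total counts for scaling, the log2 fold changes of MMVL30 and RLTR6_MM were −0.56 and −0.47. Without mutant replicate 1, RLTR6_MM was 0.53 on the log2 scale (Benjamini-Hochberg-adjusted p = 0.0138 in edgeR).

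RLTR6I_MM is by its name the internal region that goes with RLTR6, and was grouped with VL30 for that name alone. Its sequence has 7778 bases against 3698 for MMVL30, and whether it belongs to VL30 was not tested. RLTR6I_MM had 1986, 1932 and 2326 reads in wild type and 1472, 1891 and 1117 in mutants. The levels were 3322, 3822 and 3192 CPM in wild type and 2362, 2644 and 1825 CPM in mutants, again without overlap. The log2 fold change of RLTR6I_MM was −0.60 (standard error 0.14, Benjamini-Hochberg-adjusted p = 0.0133 and Bonferroni-adjusted p = 0.811 in edgeR), and −0.63 without mutant replicate 1 (Benjamini-Hochberg-adjusted p = 0.0282 in edgeR). RLTR6B_Mm, a further LTR, had 682, 774 and 631 CPM in wild type and 619, 629 and 476 CPM in mutants. These groups were next to each other without overlap, and RLTR6B_Mm (log2 fold change −0.27, standard error 0.13, and −0.13 without mutant replicate 3) passed neither adjustment.

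The ratio of each other VL30 family to RLTR6I_MM separated the genotypes, and such a ratio within a library does not depend on the scaling. For each read of RLTR6I_MM there were between 4.76 and 5.01 reads of MMVL30 in wild type and from 9.46 to 11.5 in mutants, so the ratio was 2.08-fold higher (log2 difference 1.06, exact permutation test, two-sided, p = 0.1 and 0.2 when adjusted over the 8 pairs). With a library left out in turn, this log2 difference was between 0.97 and 1.11. The ratio of RLTR6_MM to RLTR6I_MM was from 0.794 to 0.921 in wild type and from 1.72 to 2.18 in mutants, 2.22-fold higher, with the same p-values from the exact permutation test. RLTR6_MM and MMVL30, in contrast, kept nearly the same ratio. It was from 0.167 to 0.186 in wild type and from 0.176 to 0.190 in mutants, and these ranges overlapped. The log2 difference of this ratio was 0.097 with all libraries. It was 0.15 without wild-type replicate 1 and 0.13 without mutant replicate 2, and in neither case did the ranges overlap. RLTR6B_Mm had between 0.198 and 0.205 reads for each read of RLTR6I_MM in wild type and between 0.238 and 0.262 in mutants, which was 1.26-fold higher, with the same p-values from the exact permutation test. How reads that match several of these related sequences were counted is not given in the sources used here, so the counts of MMVL30 and RLTR6_MM may not be independent. The table has a further family named for VL30 that lies outside the naming rule, LTRVL30, with 3 reads in wild-type replicate 3, 1 read in mutant replicate 1 and 0 in the other libraries.

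**Figure D4:**
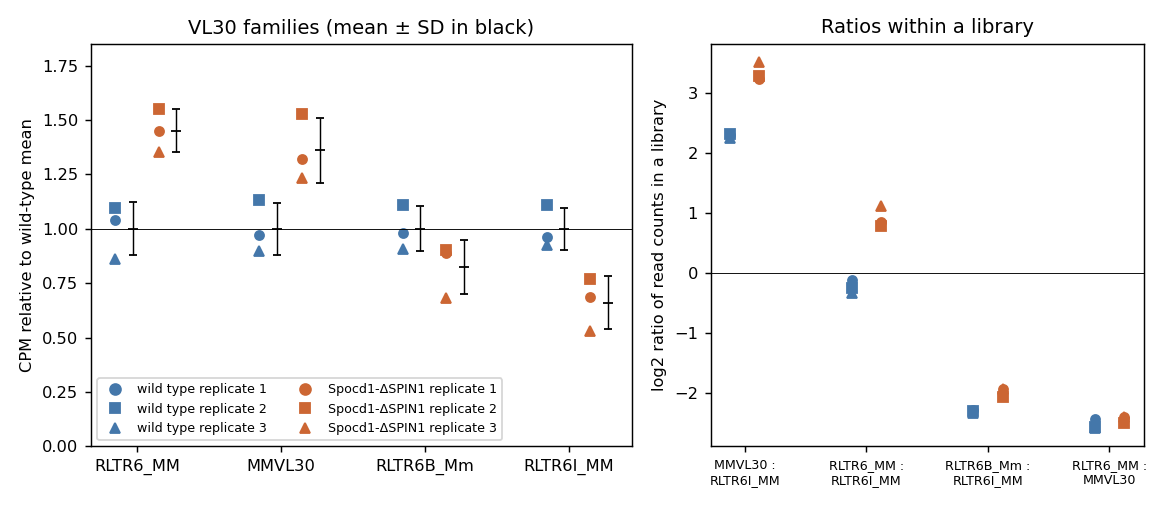
Left, CPM of the 4 VL30 families relative to the wild-type mean in each library, with mean ± SD in black. Right, log2 ratio of read counts between VL30 families within each library, where the ratios of MMVL30 and RLTR6_MM to RLTR6I_MM separate the genotypes by 1.06 and 1.15 on the log2 scale and the ratio of RLTR6_MM to MMVL30 does not.

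Murine leukaemia virus sequences were abundant in both genotypes. RLTR4I_MM, the internal region of 7587 bases, had 13341, 20508 and 14406 CPM in wild type and 17023, 14543 and 13669 CPM in mutants. Wild-type replicate 2 had the highest level of all 6 libraries and wild-type replicate 1 the lowest, so the genotypes overlapped. The log2 fold change was −0.093 (standard error 0.17, Bonferroni-adjusted p = 1 in edgeR). RLTR4_MM, the LTR, had 1880, 2856 and 2078 CPM in wild type and 2659, 2004 and 1989 CPM in mutants, and its log2 fold change was −0.034 (standard error 0.18). The LTR followed the internal region from library to library, with a ratio between 0.138 and 0.156 in all 6, and the ratio overlapped between the genotypes (exact two-sided permutation test, p = 0.6, n = 3 mice each). The spread between wild-type mice, with a coefficient of variation of 24.0% for RLTR4I_MM and 22.7% for RLTR4_MM, was larger than that of the 4 VL30 families, between 9.65% and 12.2%. Without wild-type replicate 2, the log2 fold changes were 0.12 for RLTR4I_MM and 0.16 for RLTR4_MM.

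Families of the remaining name groups had fewer reads and were not called by either adjustment in edgeR with TMM, all libraries and the filter filterByExpr, although all 3 were called lower with total counts. MuRRS4-int, an internal region of murine retrovirus-related sequences, had 575, 708 and 718 CPM in wild type and 552, 551 and 526 CPM in mutants, and its log2 fold change was −0.30 (standard error 0.097, Benjamini-Hochberg-adjusted p = 0.0504 in edgeR, adjusted p = 0.0448 with a filter of at least 10 counts in every library and adjusted p = 0.0101 without wild-type replicate 1). RLTR5_MM had 55.2, 51.4 and 43.9 CPM in wild type and 35.3, 37.8 and 42.5 CPM in mutants, and between 22 and 33 reads in a library. Neither family overlapped between the genotypes, but the gap in RLTR5_MM is below its counting error of 21.3%. MURVY-int had 100, 73.2 and 83.7 CPM in wild type and 72.2, 68.5 and 76.8 CPM in mutants, which overlapped.

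Read over all 19 families tested, 4 log2 fold changes were above 0 and 15 below, with a median of −0.27, against a median of −0.039 for all 292 families, of which 127 were above 0 and 165 below. Benjamini-Hochberg adjustment called 2 ERV1 families higher (MMVL30 and RLTR6_MM) and 5 lower (MERV1_I, RLTR1F_Mm, RLTR6I_MM, RLTR1B_MM and RLTR1D_MM), where 15.4% of all families were called higher and 16.1% lower (MMVL30 and RLTR6_MM were lower with total counts). Among the 19, the genotypes did not overlap in 3 families that were higher and 10 that were lower, compared with 20.9% and 25.0% of all families. The medians were −0.25 for the 7 internal regions and −0.27 for the 12 LTRs tested, and internal regions gave from 4.84 to 5.33 reads for each LTR read in wild type and from 4.89 to 5.19 in mutants. With MMVL30 left out, there were from 2.60 to 3.12 in wild type and from 2.23 to 2.43 in mutants, which did not overlap.

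Other repeat groups, listed by name, are given for comparison. Of 97 other RLTR families tested, 1 was called higher and 5 lower, with a median log2 fold change of −0.19. Of 32 IAP families, 3 were called higher and 1 lower, with a median of 0.31, and of 46 LINE1 families 10 were called higher and 0 lower, with a median of 0.19. These medians are with TMM, and total counts shift each family by −1.04 to −0.99. ERVK-like families (names starting with MMERVK, ETn, MMETn, ERVB or SRV) had 2 of 31 called higher and a median of −0.092, and ERV3-like families (MERVL, MT and ORR1) had 0 of 9 called by edgeR and a median of −0.10. Families named ERV1 that the naming rule leaves out had log2 fold changes of 0.30 for ERV1-4_MM-LTR, −0.040 for ERV1-5B_MM-LTR and −0.046 for ERV1-2_MM-LTR, and none of these was called.

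As a share of all reads in the table, the 21 ERV1 families together took 6.17%, 7.50% and 6.23% in wild type and 3.97%, 3.82% and 3.10% in mutants. LINE1 reads make up much of the total. Of the reads outside LINE1 families, the ERV1 families took 11.3%, 13.0% and 11.7% in wild type and 10.04%, 12.1% and 10.2% in mutants, which overlapped. This share differed by −1.23 percentage points, by −0.72 without wild-type replicate 2 and by −1.89 without mutant replicate 2. Without mutant replicate 2, the genotypes did not overlap in it. For each read of an IAP family there were from 0.608 to 0.691 ERV1 reads in wild type and from 0.589 to 0.703 in mutants, which overlapped. For each read of any other LTR family, IAPs included, there were from 0.226 to 0.263 ERV1 reads in wild type and from 0.175 to 0.224 in mutants. These did not overlap, by a narrow margin, and the mean ratio was 1.23-fold lower in mutants.

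MMVL30, the family with the most reads, weighs on each of these sums. Without MMVL30, the ERV1 families took from 7.28% to 8.89% of the reads outside LINE1 in wild type and from 5.89% to 6.71% in mutants. For each IAP read there were then from 0.391 to 0.450 ERV1 reads in wild type against from 0.344 to 0.366 in mutants, and for each read of any other LTR family from 0.139 to 0.171 against from 0.101 to 0.117. In all 3 measures, the mutants lay below wild type without overlap once MMVL30 was left out. The 3 measures use the same ERV1 reads, so they are not independent. Of these reads, the RLTR4 families, whose own levels overlapped, took from 57.3% to 65.5% in wild type and from 58.7% to 63.0% in mutants.

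**Figure D5:**
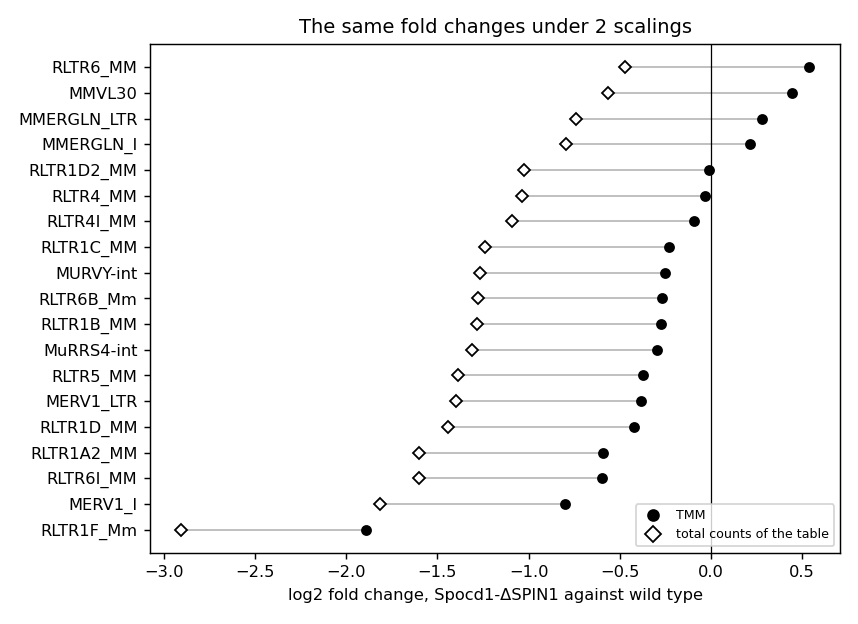
Log2 fold change of each of the 19 tested families in Spocd1-ΔSPIN1 against wild-type testes, with TMM (filled circles) and with total counts of the table (open diamonds) for scaling. The families move by nearly the same amount, the 4 families above 0 with TMM lie below 0 with total counts, and the order of the families is nearly the same.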

How the data were processed

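Total RNA of P20 testes (3 libraries per genotype, each taken as a mouse) was depleted of ribosomal RNA and made into stranded libraries with 8 PCR cycles. The authors deposited raw read counts per repeat family, without normalization, and the length of each family's sequence. Their processing notes list cutadapt 1.18, Bowtie2 2.4.2 and mm10, while the counting of reads that match several families, and the use of strand, are not given in the sources used here. A row named for the aligner, with 0 in every library, was left out.

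Counts of the whole table were fitted with edgeR 4.0.16 in R 4.3.3 (filterByExpr, TMM, glmQLFit, glmQLFTest, two-sided, no covariate), with Bonferroni adjustment over all 292 tested families, as in the study, and a threshold of 0.05. The filter left out 71 of 363 families. The standard error was derived from the F statistic. CPM are counts over the effective library size. Effective sizes were between 505520 and 728705. Ratios within a library were compared by exact two-sided permutation tests (scipy 1.17.1), which cannot give less than 0.1 for 3 against 3, and sums over several families are given without a p-value.

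The families and lists were chosen with earlier results of these data known, and the pairs compared by ratio, and the families named for VL30 or ERV1 outside the rule, after their values had been seen. All families of the naming rule are named, with values per library for those with an unadjusted p under 0.05, the 5 most abundant per kilobase in wild type and the longest of each name group, and for others. Alternatives were the Wald test of DESeq2 1.42.0, other scalings, other filters, Benjamini-Hochberg adjustment, a replicate block and each library left out. The fits were tested on simulated data. Counting errors cover counting only, since PCR copies of a molecule are counted separately. No sequence of a family was analysed here.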

Additional observations from a re-analysis of the deposited data

How the results depend on the processing

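RLTR1F_Mm passed the Bonferroni threshold in all 13 alternative fits and MERV1_I in 12. The exception was the fit with the replicate number as a block, in which 1 family was called, lower, against 2, and MERV1_I had a log2 fold change of −0.80 (Bonferroni-adjusted p = 0.0813). The numbers were not taken as pairs, since the deviations of same-numbered libraries had correlations of 0.083, 0.0080 and −0.14, and not each library correlated best with its own number. With total counts for scaling, 13 ERV1 families were called, all 13 lower, the median log2 fold change was −1.28 against −0.27, and the values of MMERGLN_LTR (−0.74), RLTR6_MM (−0.47), MMVL30 (−0.56) and MMERGLN_I (−0.79) turned negative. Of all 292 families, 172 were then called, against 24. DESeq2's Wald test called 1 family higher, RLTR6_MM, and 47 of all 359 families, 30 higher and 17 lower. With Benjamini-Hochberg adjustment 7 were called, 2 higher and 5 lower. With a library left out, this adjustment called between 4 (without wild-type replicate 3) and 7, and 5 without mutant replicate 1 or mutant replicate 2. With TMM factors computed without LINE1 families the median was −0.22, and with a library left out between −0.31 and −0.21. The replicate block called 14 of all 292 families, and RLTR1B_MM did not pass Benjamini-Hochberg adjustment with it (adjusted p = 0.0667), and between 14 and 28 were called with a library left out.

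Values near 0 changed sign. RLTR4_MM was 0.0028 in edgeR with the size factors of DESeq2 and 0.019 with TMM factors without LINE1 families, and between −0.19 and 0.16 with a library left out. RLTR1D2_MM was 0.020 with DESeq2, 0.024 with its size factors and 0.040 without LINE1 families in the factors, and between −0.077 and 0.037 with a library left out. RLTR4I_MM was between −0.21 and 0.12 with a library left out. The difference in the log2 ratio of ERV1 to IAP reads was with a library left out between −0.073 and 0.053, in that of internal to LTR reads between −0.050 and 0.020, and in that of MMERGLN_LTR to MMERGLN_I between −0.034 and 0.21. With MMVL30 left out of the sums, the share of the GLN and RLTR1 families differed by 0.15 percentage points (−0.74 with it), that of VL30 by 1.247 (7.18) and that of the RLTR4 families by −0.027 (−5.23), the log2 ratio to IAP reads by −0.22 (−0.0068), that to other LTR reads by −0.51 (−0.30) and that of internal to LTR reads by −0.31 (−0.018). With a library left out and MMVL30 kept, these shares differed by −1.24 (without wild-type replicate 2) to −0.36 (without wild-type replicate 3) for GLN and RLTR1, 5.34 to 8.90 for VL30, and −6.97 to −3.36 (without wild-type replicate 2) for the RLTR4 families. The cause was not tested. Of the tested families, RLTR1A2_MM, RLTR1D_MM, RLTR1F_Mm, RLTR5_MM, MURVY-int and MERV1_LTR had at most 93 reads in a library, with counting errors between 13.4% and 28.9% at their lowest counts.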
